A study of Nannochloropsis oceanica with 36 samples.

Results

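The genes described here stood lower in nitrogen-deprived than in nitrogen-replete cultures of the marine alga Nannochloropsis oceanica IMET1 both in the first hours after transfer and after 24 and 48 h. They numbered 131 of 9647 gene models tested and 9756 in all. Levels are FPKM, the fragments of a gene model scaled by its length and by the mapped fragments of the library, and differences are deprived minus replete means of log2(FPKM + 1), so that -1 is a 2-fold lower level. A gene was a member when the mean of its differences at 3, 4 and 6 h (the early difference) and the mean of those at 24 and 48 h (the late difference) were both at or under -0.8. The members were thus chosen by the measured differences at these 5 times, and values at them are given as a description without a test. The difference at 12 h took no part in the choice and carries the only test. The 12 h libraries counted only toward the filter of at least 1 FPKM in 3 or more libraries.

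Cells of 1 strain, IMET1, were grown in a modified f/2 seawater medium, washed and placed at equal number either in nitrogen-replete medium, the control, or in medium without nitrogen. All cultures had continuous light (about 50 µmol photons m-2 s-1), 25 °C and air enriched to 1.5% CO2. Each medium had 3 replicate cultures at each of 3, 4, 6, 12, 24 and 48 h, which gave 12 groups and 36 libraries of poly(A) RNA from whole cells. The labels call the molecule nuclear RNA, while the extraction protocol describes total RNA. Nothing in the labels says whether a replicate number follows 1 culture over time.

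Nitrogen is a building block of amino acids, nucleotides and chlorophyll, and an alga that runs out of it stops dividing, takes down part of its protein and photosynthetic machinery, and stores carbon as lipid or starch. Nannochloropsis is known for storing triacylglycerol under these conditions. The files name the members only by scaffold and gene number, so no function is given to any of them, no list of pathway genes could be matched, and no sequence is shown.

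Time point 12 h was unlike the rest whatever the medium. A principal component analysis of all genes tested put 53.1% of the variance on its leading axis, where the 6 libraries of 12 h scored 96.9 to 102 and the remaining 30 scored -44.4 to 5.04. Summed FPKM ran from 475304 to 629498 per library, and total fragment numbers are unknown. FPKM is a share of a library, so a lower value can also follow from a rise of other transcripts. The median difference of all genes tested was 0.10 at 12 h, and centring each library on its median log2 ratio moved it by -0.08 at 12 h, -0.16 at 24 h and -0.15 at 48 h. Fewer cells carrying a transcript and less of it per cell cannot be told apart in such libraries.

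At 12 h, the time whose difference was left out of the choice, 130 of the 131 members were called lower in deprived medium. A call means a Benjamini-Hochberg adjusted p under 0.05 in a linear model fitted with limma to all genes tested. Of all 9647 genes, 23.9% were called lower at 12 h and 38.7% higher. Lower genes made up 38.2% of these calls, a share that was 47.9% after centring each library on its median ratio and 48.9% after quantile normalization. None of the members was called higher by limma, and 0 were higher at an unadjusted p under 0.05. The median difference of the members at 12 h was -1.18, with a range from -3.92 to 0.11, beside 0.10 for all genes tested. In 89 members the level was called lower and at least 2-fold so, against 3.87% of all genes. The 3 deprived libraries lay below the 3 replete libraries in 130 members, and in 22.5% of all genes.

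Members were abundant transcripts, and abundant genes were called lower at 12 h more often than others. Among the 1038 genes with a mean of 100 FPKM or more over the replete libraries, 53.9% were called lower and 21.6% higher, 18.4% were called and at least 2-fold lower, and 52% had libraries that did not overlap. Of the members, 111 reached that level. Genes lowered in only 1 of the 2 windows can be set beside the members, without a test of the difference. Of 117 genes lowered early but not late, 94 were called lower at 12 h and 5 higher, and their median difference was -0.76. Of 842 genes lowered late but not early, 349 were called lower and 285 higher, with a median of -0.04. The members made up 52.8% of the 248 genes lowered early and 13.5% of the 973 genes lowered late.

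**Figure D1:**
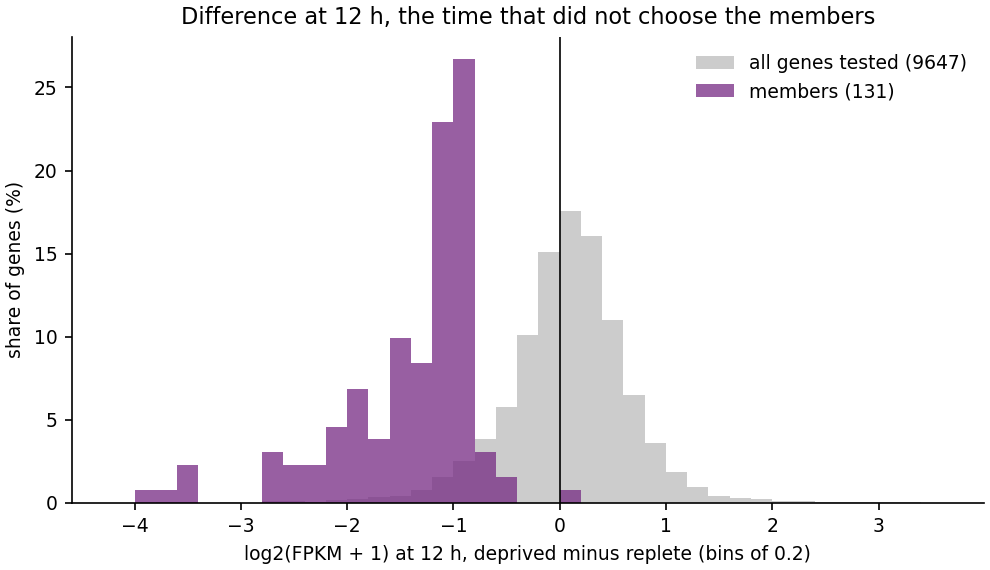
Difference between deprived and replete medium at 12 h on the log2(FPKM + 1) scale (x axis, bins of 0.2) as a share of genes in percent (y axis), for the 131 members and for all 9647 genes tested. The members centre on -1.18 and all but 1 lie below 0, whereas all genes centre on 0.10.

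The single member not called lower at 12 h was scaffold00245.g6400 (scaffold00245, 12056 to 14193). Its deprived libraries held 163, 153 and 130.0 FPKM at 12 h and its replete libraries 104, 153 and 161 FPKM, so the media overlapped. Its log2 difference of 0.11 did not pass (SE 0.167; limma, Benjamini-Hochberg adjusted p = 0.585), and its sign rested on 1 library: without replete 12 h replicate 1 it was -0.08 (limma, adjusted p = 0.696). The media were apart at 3, 4, 6 and 48 h. At 3 h the deprived libraries held 66.2, 76.5 and 68.0 FPKM and the replete libraries 243, 224 and 285 FPKM. At 48 h they held 113, 101 and 111 FPKM against 356, 400 and 400 FPKM. At 24 h the media overlapped again, with 109, 143 and 89.8 FPKM against 125, 118 and 176 FPKM and a difference of -0.29.

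The 4 other members with the smallest differences at 12 h were all called lower. They were scaffold00145.g4885 at -0.58 (SE 0.185; limma, Benjamini-Hochberg adjusted p = 0.00731), scaffold00127.g4241 at -0.60 (SE 0.0982; adjusted p = 4.56e-06), scaffold00007.g201 at -0.61 (SE 0.139; adjusted p = 0.00037) and scaffold00271.g8007 at -0.61 (SE 0.0623; adjusted p = 6.55e-10). Their paths over time were unlike. The difference of scaffold00145.g4885 (scaffold00145, 93896 to 98635) was -2.97 at 3 h, -1.55 at 4 h and -0.84 at 48 h, whereas that of scaffold00127.g4241 (scaffold00127, 257560 to 260970) stayed between -0.94 and -0.60 at all 6 times.

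A pair of courses could be told apart among the members, by whether the difference at 6 h was deeper or weaker than at 3 h, a split chosen after the values were seen. It was weaker at 6 h in 84 members and deeper in 47. Both groups had early differences of like size, with medians of -1.10 and -0.95, and they lay far apart late, with medians of -1.03 and -2.17. In the first group, called easing here, the median difference ran from -1.41 at 3 h over -1.19 at 4 h to -0.70 at 6 h, then stood at -1.33 at 24 h and -0.79 at 48 h. In the second, called deepening here, it ran from -0.74 over -0.89 to -1.32 and then stood at -2.18 and -2.10. The difference at 12 h was used neither in the choice of members nor in the split. At that time limma called 83 of 84 easing members lower, with a median of -1.01, and 47 of 47 deepening members, with a median of -1.97.

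**Figure D2:**
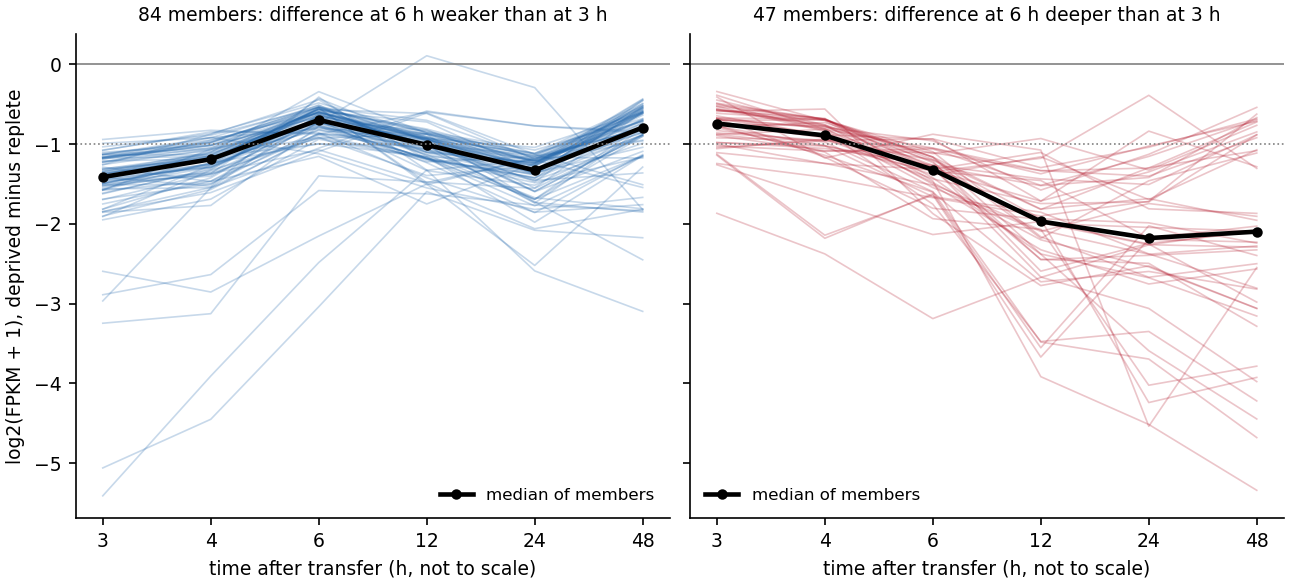
Difference between deprived and replete medium on the log2(FPKM + 1) scale (y axis) at each time after transfer (x axis, hours, evenly spaced) for the 84 easing members (left) and the 47 deepening members (right). Thin lines are single genes, the black line is the median, and the dotted line marks a 2-fold lower level; the left median is nearest 0 at 6 h and the right median is lowest at 24 h.

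Among easing members the difference was deepest at 3 h or at 24 h in most. The deepest difference came at 3 h in 45 of the 84, at 24 h in 28, at 12 h in 5, at 48 h in 5 and at 4 h in 1. Between 24 and 48 h the difference became weaker in 72 of them. In deprived medium the level was higher at 6 than at 3 h in 77 of the 84, with a median log2 change of 0.55. In replete medium it was lower at 6 than at 3 h in 70, with a median change of -0.15, so both media moved toward each other over these hours. The median level of these genes was 392 FPKM in replete and 144 FPKM in deprived medium at 3 h, 345 and 216 FPKM at 6 h, and 242 and 146 FPKM at 48 h.

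The most abundant easing member, scaffold00252.g7073 (scaffold00252, 164376 to 167137), has this course. Like scaffold00069.g2456 below, it was picked after its values were seen. Its replete libraries held 1499, 1482 and 1546 FPKM at 3 h and 1378, 1388 and 1492 FPKM at 6 h, while the deprived libraries held 526, 580.0 and 506 FPKM at 3 h and 866, 898 and 860.2 FPKM at 6 h. At 12 h the deprived libraries held 407, 383 and 320.4 FPKM against 885, 903 and 1001 FPKM, which is 2.52-fold lower (log2 -1.33, SE 0.0745; limma, Benjamini-Hochberg adjusted p = 7.99e-16). The media did not overlap at any of these times. At 48 h the means were 469 ± 24.6 FPKM deprived and 864 ± 46.9 FPKM replete (SD, n = 3 each), a difference of -0.88.

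Easing members were alike in their levels over the whole course. Pearson's r of log2(FPKM + 1) over the 36 libraries had a median of 0.91 between pairs of them, beside 0.78 between pairs of deepening members and 0.69 between a member of each group. These values describe the 36 libraries, which all the genes share, and the rule itself made the members alike in the contrast of the media.

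The 5 members with the deepest early difference were scaffold00009.g887, scaffold00009.g888, scaffold00080.g2676, scaffold00182.g5606 and scaffold00259.g7283, with early differences of -4.18, -3.93, -2.59, -2.53 and -2.48. The first 4 were easing members and the last a deepening one. The late differences were smaller in each, at -2.13, -1.37, -1.23, -1.90 and -2.17. At 12 h limma called all 5 lower.

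Transcripts of scaffold00009.g887 (scaffold00009, 1532269 to 1534723) were nearly gone at 3 h and came back in part. Deprived libraries held 14.2, 21.4 and 12.9 FPKM at 3 h and replete libraries 558, 533 and 589 FPKM. By 12 h they held 554, 483 and 395 FPKM against 1420, 1348 and 1528 FPKM, 3.02-fold lower (log2 -1.59, SE 0.233; limma, adjusted p = 6.60e-07). The level at 12 h was thus the highest of the 6 times in both media, and the media still did not overlap. At 24 h the deprived libraries ranged widely, at 63.4, 183 and 105 FPKM, against 398, 438 and 539 FPKM. At 48 h the means were 121 ± 21.1 FPKM and 545 ± 25.7 FPKM (SD, n = 3 each).

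Its neighbour scaffold00009.g888 (scaffold00009, 1534818 to 1539216), 94 bp away, followed the same course. The deprived mean went through 6.67 ± 1.59, 25.4 ± 6.05, 92.5 ± 26.6 and 377 ± 45.3 FPKM at 3, 4, 6 and 12 h, and the replete mean through 322 ± 25.2, 389 ± 20.3, 509.5 ± 50.9 and 943 ± 41.6 FPKM (SD, n = 3 each). The difference at 12 h was -1.33 (SE 0.238; limma, Benjamini-Hochberg adjusted p = 1.67e-05). Pearson's r between the levels of these 2 genes over the 36 libraries was 0.98. The libraries do not keep strand, so reads of neighbours that overlap cannot be told apart.

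Of the other 3, scaffold00182.g5606 and scaffold00080.g2676 had their lowest deprived level at 4 h and scaffold00259.g7283 at 6 h. In deprived medium scaffold00182.g5606 (scaffold00182, 686129 to 687663) held 20.4, 17.1 and 17.6 FPKM at 4 h, against 135, 137 and 144 FPKM, and 60.3, 61.7 and 51.9 FPKM at 12 h, against 155, 157 and 185 FPKM, 2.83-fold lower at 12 h (log2 -1.50, SE 0.0896; limma, Benjamini-Hochberg adjusted p = 4.05e-15). In scaffold00080.g2676 (scaffold00080, 570037 to 573191) the deprived libraries held 7.10, 6.10 and 6.49 FPKM at 4 h, against 62.4, 69.0 and 63.6 FPKM, and the difference at 12 h was -1.47 (SE 0.102; limma, adjusted p = 1.30e-13). Neither gene's media overlapped at these times. Deepest at 6 h was scaffold00259.g7283 (scaffold00259, 287340 to 288705), with 6.06, 10.4 and 6.97 FPKM deprived against 68.2, 78.1 and 88.1 FPKM replete. At 12 h it was 6.37-fold lower (log2 -2.67, SE 0.210; limma, adjusted p = 2.67e-12), and at 48 h it stood at 64.8, 38.3 and 61.1 FPKM against 222, 225 and 236 FPKM.

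**Figure D3:**
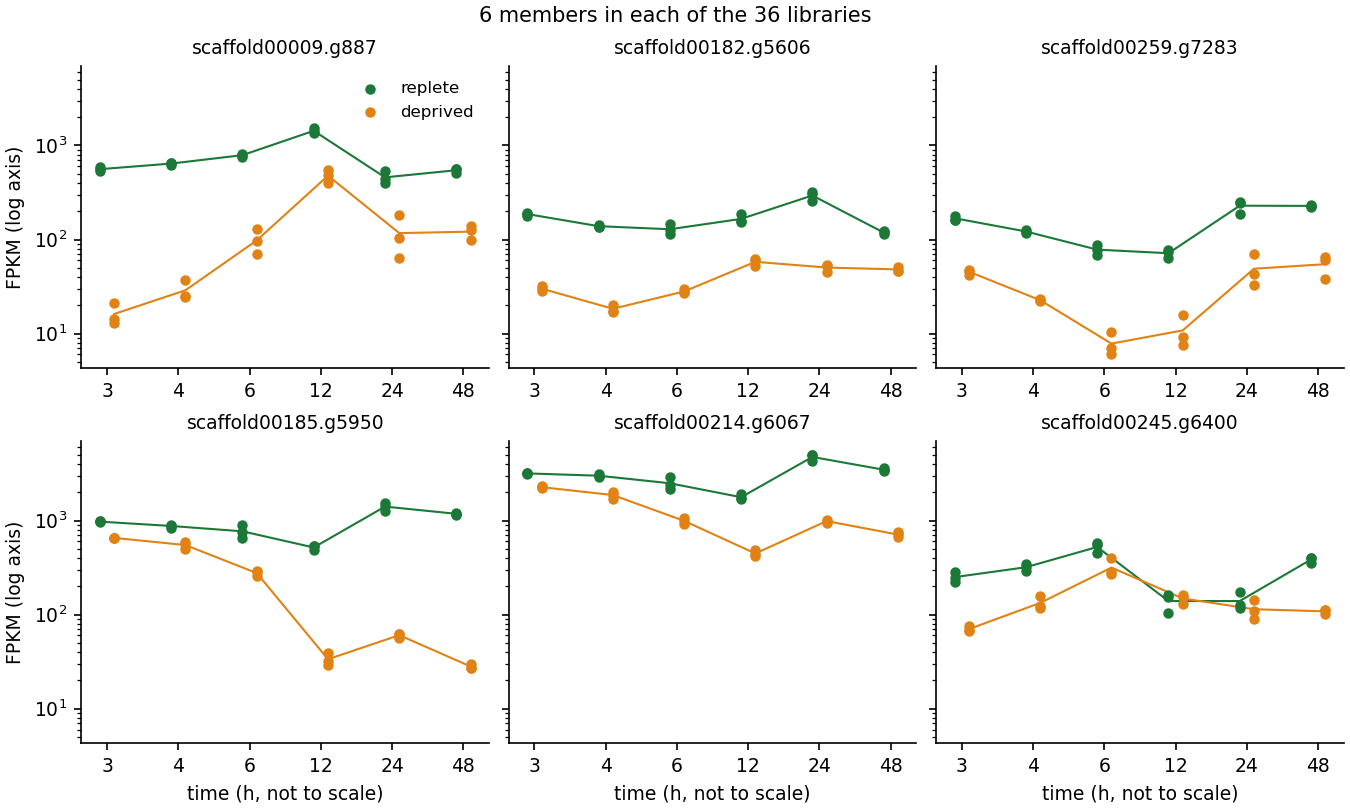
FPKM of 6 members (y axis, log scale) in each of the 36 libraries against time after transfer (x axis, hours, evenly spaced), with points for libraries and lines through the means of 3. The upper row holds 3 of the genes with the deepest early differences, and the lower row holds scaffold00185.g5950, with the deepest late difference, scaffold00214.g6067, the most abundant member, and scaffold00245.g6400, whose media overlapped at 12 h.

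The few most abundant members and most of the deepest late differences were on the deepening course, although its median level over the replete libraries was 256 FPKM, beside 317 FPKM for the easing members. A level of 100 FPKM was reached by 78.7% of deepening and 88.1% of easing members. Of the 11 members with a mean of 1000 FPKM or more in replete medium, 10 were deepening, beside 49 such genes among all tested. Of the 30 members whose late difference was -2 or deeper, 27 were deepening. In deprived medium the level of the deepening members was lower at 6 than at 3 h in 46 of 47, with a median log2 change of -0.99, and in replete medium in 41, with a median of -0.48. Between 12 and 24 h the level was higher at the later time in 47 of 47 in replete and 43 of 47 in deprived medium, by medians of 1.38 and 1.14, beside 0.66 and 0.69 for all genes. Most of them thus moved the same way in both media over these steps. From 3 h to 24 h, however, the median log2 change was 0.55 in replete and -0.85 in deprived medium. From 3 h to 48 h it was 0.13 and -1.23.

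The most abundant member was scaffold00214.g6067 (scaffold00214, 1086 to 2040), number 4 of all genes tested by mean FPKM over the replete libraries. At 3 h the deprived libraries held 2325, 2252 and 2219 FPKM and the replete libraries 3098, 3218 and 3202 FPKM. At 12 h they held 481, 441 and 419 FPKM against 1722, 1697 and 1896 FPKM, 3.96-fold lower (log2 -1.99, SE 0.0909; limma, adjusted p = 6.30e-18). At 48 h they held 749, 715 and 666 FPKM against 3347, 3443 and 3638 FPKM. The media did not overlap at any of these times, and the gap at 48 h was larger than at 3 h. The early difference of this gene was -0.830, near the threshold of -0.8.

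The next 4 in abundance followed a similar course and ranked 9, 11, 13 and 15 among all genes. They were scaffold00355.g10357, scaffold00341.g9733, scaffold00330.g9514 and scaffold00082.g3077. Their early differences were near the threshold of -0.8, at -0.806, -0.810, -0.886 and -0.834, and their late ones were -2.17, -2.92, -2.89 and -3.52. At 12 h these genes were 6.03-, 5.19-, 5.45- and 6.35-fold lower in deprived medium. Limma gave the 12 h differences Benjamini-Hochberg adjusted p = 9.46e-19, 1.02e-19, 2.85e-19 and 1.33e-20 in that order. In scaffold00082.g3077 (scaffold00082, 681413 to 683027) the deprived mean stood at 1500 ± 45.0, 168 ± 15.1 and 165 ± 9.52 FPKM at 3, 12 and 48 h, and the replete mean at 2159 ± 69.9, 1070 ± 114 and 2616 ± 111 FPKM (SD, n = 3 each). Its levels were the closest of any pair of members to those of scaffold00080.g2748, with Pearson's r of 0.997 over the 36 libraries.

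The 5 deepest late differences were those of scaffold00185.g5950, scaffold00080.g2748, scaffold00145.g5108, scaffold00267.g7531 and scaffold00145.g5109, at -4.93, -4.19, -4.08, -4.02 and -3.90. Their early differences were between -1.28 and -0.82, beside a median of -1.06 over all members. Across the 131 members Pearson's r between early and late difference was 0.05 and Spearman's rho 0.17. Across the 84 easing members they were 0.43 and 0.53, and across the 47 deepening members 0.06 and 0.08. Both thresholds of the rule bound these values, and all members share the same libraries.

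Levels of scaffold00185.g5950 (scaffold00185, 595276 to 598245) parted step by step. The deprived libraries held 658, 653 and 651 FPKM at 3 h, 257, 291 and 281 FPKM at 6 h, and 39.4, 32.5 and 28.8 FPKM at 12 h. The replete libraries held 978, 984 and 961 FPKM at 3 h, 651, 753 and 901 FPKM at 6 h, and 532, 485 and 535 FPKM at 12 h. Both media went down until 12 h, the deprived one much further, and the difference at 12 h of -3.92 (15.1-fold lower, SE 0.0964; limma, Benjamini-Hochberg adjusted p = 2.97e-24) was the deepest of all members. At 24 h the replete mean was back at 1408 ± 134 FPKM, and the deprived mean was 60.5 ± 3.95 FPKM (SD, n = 3 each). Over all genes tested, the median log2 change from 6 to 12 h was -0.68 in replete and -0.59 in deprived medium. From 12 to 24 h it was 0.66 and 0.69.

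Similar losses at 12 h were found in scaffold00080.g2748 (scaffold00080, 766708 to 769738), with 66.5, 61.9 and 62.4 FPKM against 733, 679 and 749 FPKM, and in scaffold00267.g7600 (scaffold00267, 242930 to 244166), with 58.8, 50.3 and 45.3 FPKM against 579, 505 and 664 FPKM. Their differences were -3.48 (SE 0.0993; limma, Benjamini-Hochberg adjusted p = 7.87e-23) and -3.47 (SE 0.104; adjusted p = 2.59e-22). In scaffold00267.g7531 (scaffold00267, 71197 to 73851), which had the smallest difference of any member at 3 h, -0.34, the difference was -2.38 at 12 h (SE 0.0936; limma, adjusted p = 1.39e-19) and -4.45 at 48 h.

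A pair on different scaffolds, scaffold00021.g991 (scaffold00021, 22727 to 23741) and scaffold00210.g6057 (scaffold00210, 1 to 971), had nearly the same course. In replete medium scaffold00021.g991 stood at 277 ± 18.8, 43.7 ± 4.95 and 370 ± 13.2 FPKM at 3, 6 and 48 h, and scaffold00210.g6057 at 365 ± 33.6, 64.0 ± 6.71 and 575 ± 27.7 FPKM (SD, n = 3 each). At 12 h their deprived libraries held 2.09, 3.69 and 3.07 FPKM and 4.46, 4.45 and 4.74 FPKM, against 61.7, 38.0 and 48.7 FPKM and 79.7, 54.9 and 60.2 FPKM. On the log2(FPKM + 1) scale these were 12.7- and 11.7-fold lower (limma, Benjamini-Hochberg adjusted p = 1.18e-19 and 1.01e-22). They were the deepest differences of all members at 12 h after that of scaffold00185.g5950, an order that depended on the setting. With 0.1 in place of 1 added to FPKM, scaffold00021.g991 stood at -4.03 and scaffold00185.g5950 at -3.95. With quantile normalization they stood at -4.17 and -3.45. At such low deprived levels the added 1 also makes the printed folds smaller. Pearson's r between the pair was 0.996 over the 36 libraries. One lies at the very start of its scaffold, and if the models are near-identical copies, fragments may have been split between them, which could not be checked without their sequences.

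**Figure D4:**
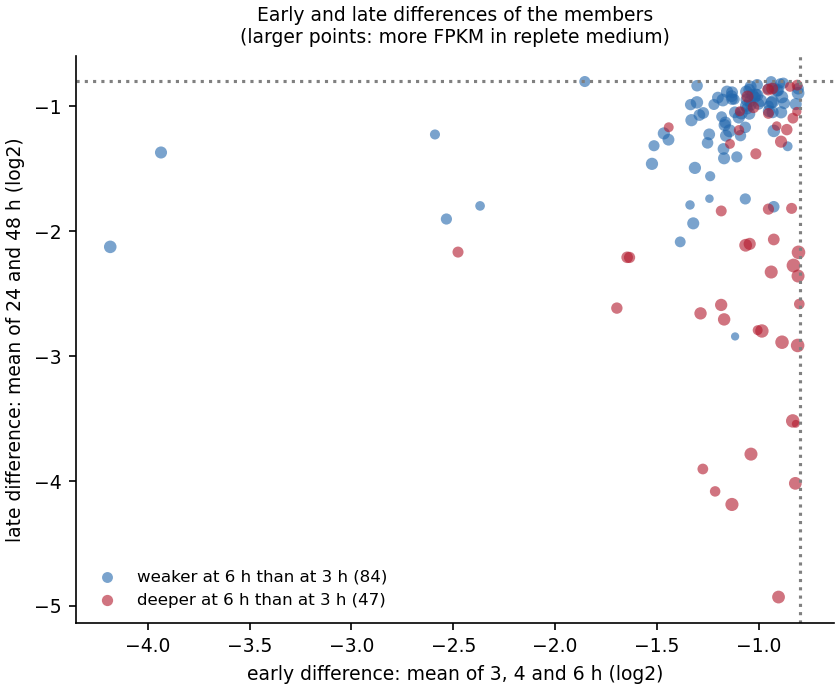
Late difference (mean of 24 and 48 h, y axis) against early difference (mean of 3, 4 and 6 h, x axis) of the 131 members on the log2(FPKM + 1) scale, with larger points for a higher mean FPKM in replete medium and dotted lines at the threshold of -0.8. Of the 5 deepest early differences 4 belong to easing members, and the 5 deepest late ones, from -4.93 to -3.90, all belong to deepening members.

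At each of the 6 times 10 genes stood at least 2-fold lower, which makes a gene a member by the rule itself. They were 5 easing and 5 deepening genes, which include scaffold00009.g887, scaffold00009.g888, scaffold00182.g5606, scaffold00259.g7283, scaffold00021.g991 and scaffold00210.g6057. On the log2 scale 130 members were below the replete mean at all 6 times, as were 890 of all 9647 genes tested, members included. The rule favours this at every time but 12 h. At the edge of the rule, scaffold00080.g2532 was inside with an early difference of -0.802, and scaffold00145.g4885 with a late difference of -0.804. Just outside lay scaffold00247.g6769, with an early difference of -0.792 and a late one of -1.54, and scaffold00355.g10312, with -0.791 and -1.28.

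Together the members held a larger part of the summed FPKM in replete than in deprived libraries, a direction that the rule favours at the times it used. At 3 h they held 11.4 to 11.7% of the summed FPKM in the replete libraries and 6.10 to 6.18% in the deprived ones. At 12 h the shares were 6.98 to 7.04% and 2.77 to 3.03%, at 24 h 12.5 to 12.7% and 3.86 to 3.98%, and at 48 h 10.1 to 10.4% and 3.69 to 3.77%. The 12 h shares, from the time whose difference did not enter the choice, did not overlap between media. They were the lowest of the 6 times in both. Deepening members held 7.08 to 7.35% of the replete and 1.54 to 1.57% of the deprived sum at 24 h, while the easing members held 5.30 to 5.44% and 2.31 to 2.43%. At 6 h in replete medium the deepening share ran from 3.45 to 4.41%, the widest range of any group.

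**Figure D5:**
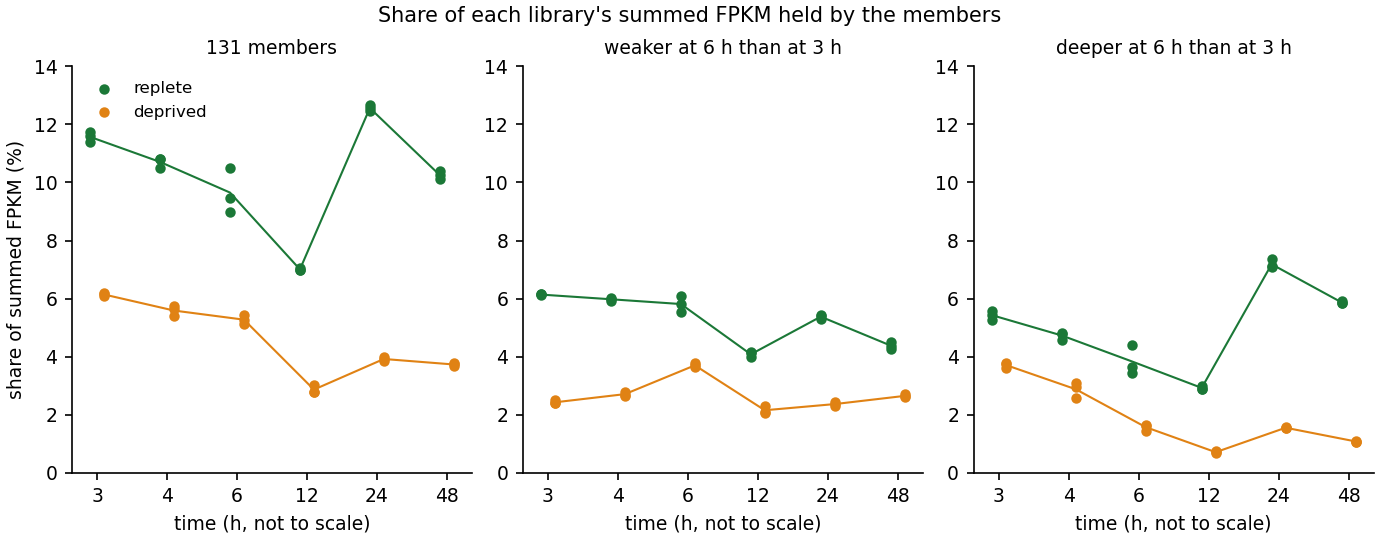
Share of each library's summed FPKM (y axis, percent) held by all 131 members, by the 84 easing members and by the 47 deepening members, at each time (x axis, hours, evenly spaced). Points are libraries and lines join the means of 3. Replete libraries lie above deprived libraries at every time in all 3 panels, and at 24 h hold 12.5 to 12.7% against 3.86 to 3.98% for all members. The rule favours this direction at every time but 12 h, whose difference took no part in the choice.

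The members had higher levels than other genes but not longer loci. Their median level over the replete libraries was 311 FPKM, beside 26.8 FPKM for all genes tested, and 84.7% of members reached 100 FPKM, beside 10.8% of all genes. The range among members was 11.1 to 3109 FPKM. In any library 0 members were listed at 0, beside only 87 of all 9647 genes tested. The median locus length, introns included, was 1993 bp, beside 2135 bp for all genes tested. A difference on the log2(FPKM + 1) scale understates the change of genes at low levels. The least abundant member, scaffold00069.g2456 (scaffold00069, 642714 to 644318), stood at 0.242, 0.903 and 0.294 FPKM in deprived and 50.2, 36.5 and 19.0 FPKM in replete medium at 24 h. Its late difference of -3.54 rests on such values. Its early difference and its place on the deepening course also rest on low values. At 3 h the deprived libraries held 0.905, 2.07 and 1.25 FPKM against 2.57, 1.78 and 2.10 FPKM. At 6 h they held 2.33, 1.02 and 1.53 FPKM against 5.36, 4.25 and 2.14 FPKM. The media thus overlapped at 3 and 6 h, though not at 4 h.

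Members were spread over 41 of the 283 scaffolds that hold tested genes, with at most 9 on 1 scaffold. Next to each other lay 5 pairs, with 10 members in all. Within a pair Pearson's r of the levels over the 36 libraries was 0.76 to 0.99. Members were alike wherever they lay, with the medians of 0.69 to 0.91 above, and each pair lay above the median of its kind. The easing pairs had 0.98 and 0.97 beside 0.91, the deepening pair 0.99 beside 0.78, and the mixed pairs 0.95 and 0.76 beside 0.69. All consecutive tested pairs on a scaffold had a median of 0.42. Whether nearness plays a part was not tested. The pair scaffold00145.g5108 (scaffold00145, 770883 to 771550) and scaffold00145.g5109 (771564 to 772708), 13 bp apart, had differences of -1.94 and -2.07 at 12 h (SE 0.109 and 0.130; limma, Benjamini-Hochberg adjusted p = 8.42e-16 and 1.32e-14) and of -4.24 and -4.02 at 24 h. In replete medium both went up over time, the first standing at 40.1 ± 3.94 FPKM at 3 h and 147 ± 12.0 FPKM at 24 h, and at 24.7 ± 3.08 and 6.82 ± 0.395 FPKM in deprived medium (SD, n = 3 each).

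Neighbours did not always share a course. On scaffold00267, scaffold00267.g7599 (241511 to 242742) was an easing member and scaffold00267.g7600, 187 bp away, a deepening one. Their early differences were almost equal, at -1.06 and -1.04, and their late ones were -0.88 and -3.78. At 12 h the differences were -1.09 (SE 0.0862; limma, Benjamini-Hochberg adjusted p = 2.91e-12) and -3.47, and at 48 h the deprived libraries held 331, 339 and 317 FPKM of the first but 79.9, 84.0 and 79.2 FPKM of the second, against 463, 474 and 493 FPKM and 1530, 1481 and 1574 FPKM in replete medium. This pair had the lowest r of the 5, 0.76.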

How the data were processed

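The authors deposited 1 FPKM value per gene model and library, in a table of the whole series and in 36 single tables with 0 differing values. TopHat2 2.0.4 and Cufflinks 2.0.2 are named in the submitters' processing notes, and settings, genome build and annotation are not given in the sources used here. Positions are counted from 1, starts having been raised by 1. Of the identifiers, 0 matched the reference table of 160 organelle genes.

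Groups came from the library titles. Genes with at least 1 FPKM in 3 or more libraries were tested on log2(FPKM + 1) with limma 3.58.1 in R 4.3.3, with a mean per group over all 36 libraries, trended moderated variances, a two-sided test and Benjamini-Hochberg adjustment over all genes tested. The model was tested on simulated data. An exact test of 3 against 3 libraries cannot give a p under 0.1. Low FPKM values fall on steps, but total depth is unknown. Replicates were distinct, with at most 0.0103% equal values.

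Named members were the 5 lowest in early and in late difference, the 5 most abundant in replete medium, the 5 lowest and 5 highest at 12 h, those in the 3 longest runs of neighbouring members (ties by lower early and late difference) and the 2 nearest the threshold on each side, 25 members in all. Members, lists and tests were chosen with earlier results of these data known. Alternatives covered pseudocount, filter, scaling, libraries in the model, replicate numbers and left-out libraries.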

Additional observations from a re-analysis of the deposited data

How the results depend on the processing

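The number of members called lower at 12 h was 130 under all 13 alternatives and the number called higher 0, and of 325 recomputed 12 h differences of the 25 named members 324 kept direction and side of the threshold; the exception was scaffold00245.g6400 with -0.0841 without replete 12 h replicate 1 and a range of -0.0841 to 0.227 over the left-out libraries. The median difference of the members at 12 h was -0.95 with quantile normalization, and the cause was not tested. It was -1.26 with median-ratio centring and between -1.23 and -1.09 with 1 library left out. Lower genes made up 38.2% of all calls at 12 h, 47.9% after centring (2937 genes lower) and 48.9% after quantile normalization (2999 genes lower, against 2302). Leaving out 1 library gave 1935 to 2359 genes lower and 3283 to 3951 higher. Deviations of same-numbered libraries of the media correlated at -0.27 to -0.06 at 12 h and at -0.27 to 0.41 over all times, up to 0.41 at 4 h, and at no time were all 3 above 0.1, so the numbers were not taken to pair them. With the replicate block 130 members, 2273 genes lower and 3688 higher were called.

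Membership moved more than the calls. The rule gave 58 genes at a threshold of -1 and 223 at -0.6, by construction. With quantile normalization 89 genes passed, 79 of them members. With median-ratio centring 169 passed and with a pseudocount of 0.1 139, and both of these sets held all 131. Without replicate 1, 2 or 3 in all groups 144, 141 and 108 genes passed, of which 126, 129 and 107 were members. The deepening course held 44 to 48 members without 1 replicate and 45 to 47 under the other settings, alternatives added after seeing the data.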

Other observations

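Replicate libraries of deprived medium were uneven at 24 h for some members, a pattern looked for after the values were seen and not tested. The highest and lowest of the 3 deprived 24 h libraries were at least 1.5-fold apart in 10 members, 7.63% of them, beside 4.06% of all genes tested. In 8 of these 10 the highest library was replicate 2, and in 9 the lowest was replicate 1. Replicate 2 was also the highest in 232 of the 392 genes of the whole table that were as far apart. Transcripts of scaffold00145.g4885 stood at 63.6, 155 and 116 FPKM in replicates 1, 2 and 3, those of scaffold00009.g888 at 48.6, 151 and 79.2 FPKM, and those of scaffold00259.g7283 at 32.7, 70.8 and 43.3 FPKM. At 48 h 7 members were as far apart, 5.34% of them beside 3.97% of all genes tested, and in 5 of them the highest library was replicate 1 and in 5 the lowest was replicate 2, while replicate 1 was the highest in 163 of the 383 such genes of the whole table. Without deprived 24 h replicate 2 the difference at 24 h was -2.46 in place of -2.08 for scaffold00009.g887, -1.62 in place of -1.20 for scaffold00009.g888 and -1.05 in place of -0.77 for scaffold00145.g4885.

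The replicates of a group otherwise lay close together for the members. The pooled SD of log2(FPKM + 1) within groups had a median of 0.107 over the members, beside 0.119 over all genes tested, and its highest value among members was 0.331, in scaffold00069.g2456.

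Also picked after its values were seen, the pair of neighbours scaffold00026.g1167 (502945 to 505179) and scaffold00026.g1168 (505186 to 505660), 6 bp apart on scaffold00026, differed from most easing members in replete medium at 12 h. Their replete means were 205 ± 9.86 and 211 ± 7.32 FPKM at 6 h and 230 ± 13.9 and 237 ± 33.7 FPKM at 12 h (SD, n = 3 each). By contrast, 71 of the 84 easing members were lower at 12 than at 6 h in replete medium. A fall over this step was common to the whole table, with median log2 changes of -0.65 for easing members and -0.68 for all genes tested. The replete libraries of scaffold00026.g1168 overlapped between 6 h (209, 205 and 219 FPKM) and 12 h (211, 224 and 275 FPKM).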
